A study of Mus musculus with 2 samples.

Results

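The genes described here encode the transforming growth factor beta (TGF-beta) and bone morphogenetic protein (BMP) signalling system, as read by microarray in 2 osteoclast cultures. Members were all non-control probes whose RefSeq accession belongs to a mouse gene with a symbol starting Tgfb, Bmpr, Smad, Acvr, Inha or Inhb, with a symbol starting Bmp, Gdf or Ltbp and then a digit, or named Nog, Grem1, Fst or Eng. They came to 80 probes for 61 genes, out of 55649 probes and 20654 named genes. Of the 63 symbols that meet this description, Tgfb1i1 and the pseudogene Bmp4-ps were matched by no probe. The rule uses names and no measured value, but it was drawn up with earlier results of these data known.

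The study had 1 array of cells from Dnmt3a knockout mice and 1 array of cells from wild type mice, both female and of C57BL/6 background. Dnmt3a is a de novo DNA methyltransferase, an enzyme that adds methyl groups to CpG sites in DNA. Monocyte and macrophage precursors were grown from bone marrow with M-CSF, and RANKL, the cytokine from which osteoclasts take their cue to form, was then added beside M-CSF. The knockout allele, the cells in which the gene was lost, the age of the mice and whether animals were pooled are not given in the sources used here.

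With 1 array per genotype there was no replicate, so no test was possible and no p-value is given. Differences are in log2 units, Dnmt3a knockout minus wild type, after each array was divided by the 75th percentile of its spots. The error printed as SE is the scanner software's own error of both spots. It covers the reading of a spot and neither cultures nor mice. Dnmt3a itself, which checks the label, had a signal of 1822 on the Dnmt3a knockout array and 7042 on the wild type array (-1.92, SE 0.20, 1 probe), and where its probe lies relative to the deletion is not known. On the Dnmt3a knockout array 59.7% of spots were well above background, and on the wild type array 52.7%. All 14 osteoclast markers fixed as a list were above background on both arrays, with a median difference of -0.54.

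TGF-beta family ligands are secreted dimers that bring together type II and type I receptors, which are kinases. The activated type I receptor phosphorylates Smad proteins, Smad2 and Smad3 for TGF-beta and activin and Smad1, Smad5 and Smad9 for most BMPs, and these enter the nucleus with Smad4. Smad6 and Smad7 inhibit the pathway. Bone matrix stores TGF-beta in a latent form that osteoclasts release and activate as they resorb it, and osteoclast precursors respond to TGF-beta, activin and BMP.

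Ligands, their binding proteins and their antagonists were spread more widely between the arrays than type I and type II receptors and Smads. Of 22 measured ligands, latent binding proteins and antagonists, 6 were at least 1.5-fold lower and 2 at least 1.5-fold higher on the Dnmt3a knockout array, where 4.69% of all measured genes were lower and 5.82% higher. Of the 16 type I and type II receptors and Smads, 0 were at least 1.5-fold lower and 1, Acvrl1, was at least 1.5-fold higher, which is near those shares. The 0 rests on reading each gene from its brightest probe, since the second probe of Tgfbr1 was at -1.14. The 3 co-receptors, from Tgfbr3 (-0.39) to Eng (0.69), are in neither group, and 1 of them, Eng, was at least 1.5-fold higher. Eng lies above the highest of the 16 (0.60), so counting co-receptors among the receptors would widen the spread of that group. The SD of the difference was 0.51 in the secreted group and 0.29 among the 16 receptors and Smads. It was 0.37 over all 13479 genes measured on both arrays. Over all genes the SD was 0.43 below the median level and 0.30 from it upward, while among the members it was 0.45 below that level (26 genes) and 0.51 from it upward (19 genes). The part of level in the wider spread of the secreted group was not tested. The division was drawn after the values were seen and is a description.

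Of all 61 members, 45 were well above background on both arrays, 3 on the Dnmt3a knockout array only, 1 on the wild type one only and 12 on neither. The lowest signal well above background was 17.7 on the knockout and 25.8 on the wild type array, so dimmer genes could pass on the knockout array. The shares of all genes that passed on a single array were not counted, and these member counts are not read as a result. Among the 45, 7 were at least 1.5-fold lower on the Dnmt3a knockout array (15.6%, against 4.69% of all measured genes): Inhbb, Bmp1, Tgfb2, Tgfb3, Ltbp1, Bmp4 and Fst. Another 5 were at least 1.5-fold higher (11.1%, against 5.82%): Tgfbi, Gdf9, Eng, Gdf5 and Acvrl1. At 2-fold, 1 member was lower and 0 were higher, where all genes gave 0.727% lower and 0.824% higher. The members had a median difference of -0.07, and all measured genes had 0.01. Of the 45, 24 lay below 0 (53.3%, against 48.1% of all measured genes) and 21 above it (all genes, 51.9%). The members differed in both directions and their middle lay near that of all genes.

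Directions are relative to the bulk of genes. With the 8 spike-in probes as the scale, each difference is lower by 0.53, so that 5 of the 45 members stay above 0 in place of 21, and the split of members at least 1.5-fold higher and lower becomes 0 and 24, where 0.482% of all measured genes were higher and 39.9% lower. It was 1 and 13 with median scaling, which shifts all genes by about -0.20 (all genes, 2.46% and 10.5%). It was 4 and 8 with quantile normalization (4.76% and 5.94%), and 3 and 4 with normexp background correction (3.64% and 2.16%). The 7 genes named as lower and the 5 named as higher kept their sign in all 4. The single spike-in probes ranged from 0.30 to 0.72, so the sign of Acvrl1, Gdf5, Eng and Gdf9 depends on which of them sets the scale, and that of Tgfbi (0.96) does not.

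**Figure D1:**
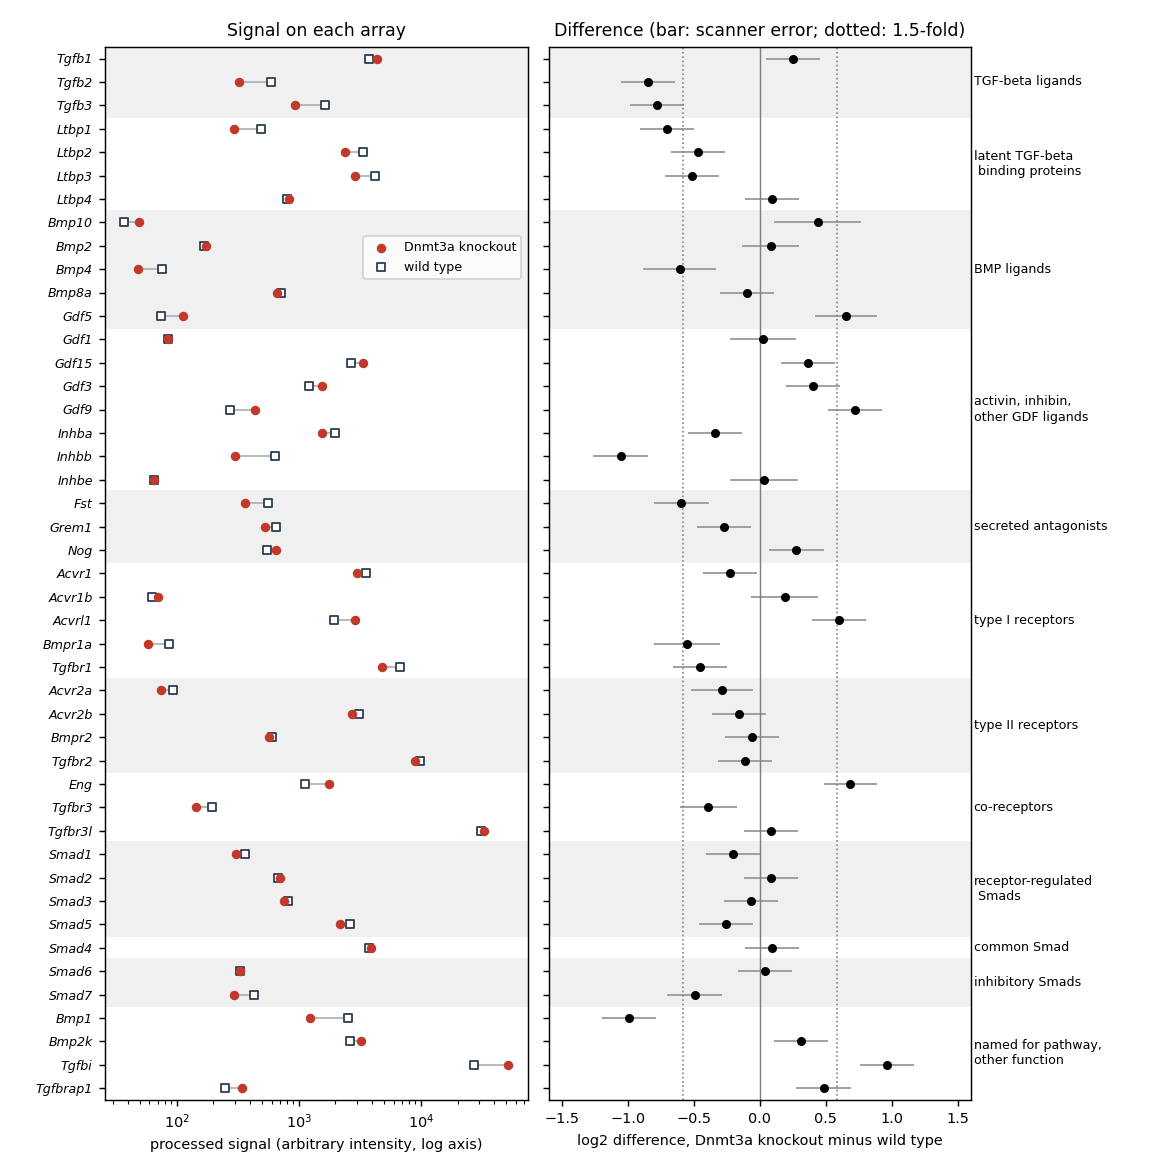
Left, the processed signal (log axis) of each of the 45 members measured on both arrays, with a filled circle for the Dnmt3a knockout array and an open square for the wild type array. Right, the log2 difference, Dnmt3a knockout minus wild type, with the scanner error as a bar and dotted lines at 1.5-fold. Ligands reach -1.06 (Inhbb) and 0.72 (Gdf9), while type I and type II receptors and Smads lie between -0.55 and 0.60. Co-receptors lie between -0.39 (Tgfbr3) and 0.69 (Eng). Scaling to spike-in probes moves every difference left by 0.53.

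The 3 TGF-beta ligands did not move together. Tgfb1, the isoform most widely made by blood cells, is measured by a probe printed 10 times on each array. Its spots read 4052 at the lowest, 4433 at the median and 4530 at the highest on the Dnmt3a knockout array, and 3571, 3783 and 3903 on the wild type array. The spots of the arrays did not overlap, and all 10 differences lay above 0, with a mean of 0.25 (SD of spots 0.03). That is 1.19-fold, beside a scanner error of 0.20, and 79.5% of all measured genes had a lower difference. The mean lies below the spike-in shift of 0.53, so spike-in scaling turns it negative.

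Tgfb3 is also printed 10 times. Its spots read 821 at the lowest, 928 at the median and 1015 at the highest on the Dnmt3a knockout array, against 1500, 1649 and 1724 on the wild type array. Again no spot of either array overlapped the other, here with the Dnmt3a knockout array lower in 10 of 10 pairs. The mean difference was -0.78 (SD of spots 0.06), or 1.72-fold lower. Repeated spots share 1 RNA sample per array, so this spread shows the reading error and not the variation between cultures.

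**Figure D2:**
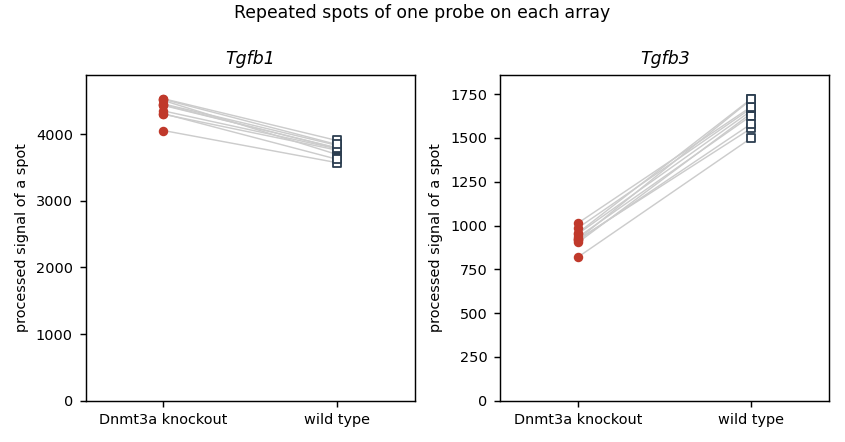
Processed signal of each of the 10 spots of Tgfb1 (left) and of Tgfb3 (right) on the Dnmt3a knockout array and the wild type array, from 0, with lines joining the spots at the same array position. Tgfb1 spots lie at 4052 or above on the Dnmt3a knockout array and at 3903 or below on the wild type array, and Tgfb3 spots at 1015 or below on the Dnmt3a knockout array and at 1500 or above on the wild type array; with spike-in scaling the Tgfb1 difference becomes negative.

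Tgfb2, which is known for roles in development and is made by many stromal cells, had a signal of 323 on the Dnmt3a knockout array and 592 on the wild type array, a difference of -0.85 (SE 0.21). Its second probe read 94.7 on the knockout and 181 on the wild type array, a difference of -0.90 (SE 0.22). The probes of Tgfb2 therefore agree in direction and size to within 0.06.

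The latent TGF-beta binding proteins hold TGF-beta in the matrix, apart from Ltbp2, which does not bind the latent complex. Ltbp1 read 296 on the Dnmt3a knockout array and 491 on the wild type array (-0.70, SE 0.21). Ltbp3 read 2880 on the knockout and 4196 on the wild type array (-0.51, SE 0.20), and its second probe gave -0.30. Ltbp2 read 2385 on the knockout and 3376 on the wild type array (-0.47, SE 0.20). Ltbp4 read 832 on the knockout and 796 on the wild type array (0.09, SE 0.20) and was the one binding protein that was not lower on the Dnmt3a knockout array. Of the 4, Ltbp1 alone passed 1.5-fold, and with normexp background correction it did not (-0.53).

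Promoter sequences are shown for 5 members. They are Tgfb1 and Tgfb2, isoforms that differed in direction, and Inhbb, Tgfbi and Eng, picked from the members at least 1.5-fold apart with a promoter entry. Ltbp1 (12 CpG in its first entry) and Bmp4 (11 CpG) also stood at least 1.5-fold apart with an entry and are not shown. Each is the 250 bases before the annotated start, 5′ to 3′ on the gene's strand, from RefSeq on GRCm38.p6, a build used for these sequences and for gene names only. Capitals mark CpG dinucleotides, the sites that DNA methyltransferases act on. The positions are chr7:25686752-25687001 (plus strand) for Tgfb1, chr1:186705990-186706239 (minus strand) for Tgfb2, chr1:119422249-119422498 (minus strand) for Inhbb, chr13:56609336-56609585 (plus strand) for Tgfbi and chr2:32646345-32646594 (plus strand) for Eng.
Tgfb1: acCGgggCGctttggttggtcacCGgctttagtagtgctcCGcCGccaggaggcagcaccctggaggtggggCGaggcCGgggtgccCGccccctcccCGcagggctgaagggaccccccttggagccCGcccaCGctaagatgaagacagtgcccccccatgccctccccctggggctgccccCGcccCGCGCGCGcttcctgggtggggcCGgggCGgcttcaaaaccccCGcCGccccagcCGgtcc
Tgfb2: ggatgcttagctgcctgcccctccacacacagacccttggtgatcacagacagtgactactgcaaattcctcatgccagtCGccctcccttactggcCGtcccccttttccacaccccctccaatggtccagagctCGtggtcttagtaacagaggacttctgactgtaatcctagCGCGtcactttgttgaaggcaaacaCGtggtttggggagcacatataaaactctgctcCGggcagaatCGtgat
Inhbb: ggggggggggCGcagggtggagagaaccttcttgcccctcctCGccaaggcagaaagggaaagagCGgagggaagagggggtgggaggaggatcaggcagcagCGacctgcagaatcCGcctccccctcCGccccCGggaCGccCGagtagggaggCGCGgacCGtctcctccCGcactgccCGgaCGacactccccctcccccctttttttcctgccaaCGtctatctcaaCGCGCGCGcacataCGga
Tgfbi: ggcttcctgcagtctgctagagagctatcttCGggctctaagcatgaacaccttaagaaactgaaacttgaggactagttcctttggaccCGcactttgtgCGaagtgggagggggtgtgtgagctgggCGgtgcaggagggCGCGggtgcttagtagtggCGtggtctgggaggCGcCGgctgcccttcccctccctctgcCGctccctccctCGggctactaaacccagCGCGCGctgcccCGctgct
Eng: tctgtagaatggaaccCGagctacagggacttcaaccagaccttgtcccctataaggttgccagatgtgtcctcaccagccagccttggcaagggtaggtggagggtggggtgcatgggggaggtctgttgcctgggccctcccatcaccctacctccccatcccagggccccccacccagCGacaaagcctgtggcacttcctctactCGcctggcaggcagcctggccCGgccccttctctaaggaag

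The Tgfb1 and Inhbb windows held 21 CpG each, Tgfbi 15, Tgfb2 8 and Eng 4. Of 27025 genes with a promoter entry, 83.9% had fewer CpG than Tgfb1 and 38.1% had fewer than Eng. Tgfb1 and Inhbb, which share this count, stood at 0.25 and -1.06, and with spike-in scaling at -0.28 and -1.59. Entries existed for 45 of the 61 members, with a median of 17 CpG. The 32 of these measured on both arrays had a median of 18.5, and the 10797 measured genes with an entry had 15. The letters TATAAA, searched on the gene's strand only, were found in Tgfb2 among the 5 and in 8.12% of all promoters. The letters CAGAC, a motif that Smad3 and Smad4 can bind, searched on both strands, occurred 2 times each in Tgfb2, Tgfbi and Eng and in no copy in Tgfb1 or Inhbb, and 42.1% of all promoters held them. A match describes letters and not a bound site, and DNA methylation was not measured in the data used here.

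Among activins and inhibins, Inhbb showed the largest difference of all 45 measured members in the main setting, while with normexp background correction (-0.88) it came after Tgfbi (0.97) and Bmp1 (-0.96). Inhbb encodes the beta B subunit of activin B, and its signal was 301 on the Dnmt3a knockout array and 638 on the wild type array (-1.06, 2.08-fold lower, SE 0.21, 1 probe). Inhba, the subunit of activin A, which is known to promote osteoclast formation with RANKL, read 1543 on the knockout and 1991 on the wild type array (-0.34, SE 0.20). Inhbe read 65.9 on the knockout and 65.8 on the wild type array (0.03, SE 0.26). Inhbb and Inhba were both lower on the Dnmt3a knockout array, Inhbb by more. Inha and Inhbc were above background on neither array.

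The growth and differentiation factors went the other way or differed little. Gdf9, best known as an oocyte factor, read 440 on the Dnmt3a knockout array and 273 on the wild type array (0.72, SE 0.21, 1 probe). Gdf3 read 1561 on the knockout and 1208 on the wild type array (0.40, SE 0.20), and its second probe gave 0.25. Gdf15, a cytokine induced by cell stress, read 3382 on the knockout and 2684 on the wild type array (0.36, SE 0.20). Gdf9 was short of 1.5-fold with normexp background correction (0.54) and with median scaling (0.53). With spike-in scaling Gdf9 stays above 0, at 0.19, and Gdf3 and Gdf15 do not. Gdf1, which shares transcripts with Cers1, read 84.9 on the knockout and 85.3 on the wild type array (0.02, SE 0.25), and Gdf10 was above background on neither array.

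BMP ligands were mostly dim. Of 14, 5 were measured on both arrays and 6 were above background on neither (Bmp6, Bmp7, Bmp8b, Bmp15, Gdf2 and Gdf6). Bmp2, which induces bone formation, read 175 on the Dnmt3a knockout array and 169 on the wild type array (0.08, SE 0.21). Bmp8a read 660 on the knockout and 722 on the wild type array (-0.10, SE 0.20). Neither differed by more than its scanner error.

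Bmp4, which also induces bone, read 48.8 on the Dnmt3a knockout array and 75.9 on the wild type array (-0.61, SE 0.28). Its signals lay close to the lowest signal of a spot well above background, 17.7 on the knockout and 25.8 on the wild type array, its second probe was above background on neither, and normexp background correction brought the difference to -0.31. Gdf5, a factor of joint formation, read 114 on the knockout and 74.2 on the wild type array (0.65, SE 0.24), with 0.25 at its second probe and 0.12 with spike-in scaling. Bmp10 read 49.7 on the knockout and 37.5 on the wild type array (0.44, SE 0.33). All 3 are dim, and the difference of Bmp10 is under 2 of its scanner errors.

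Bmp3, a BMP family member that restrains bone formation, cleared the background on wild type cells alone. Its signal was 4.56 on the Dnmt3a knockout array and 127 on the wild type array, which is at least 7.03-fold lower when the dim side is set to the lowest signal well above background there. The median pixel of its spot was 41 against a local background of 37 on the Dnmt3a knockout array, and 155 against 43 on the wild type array. This rests on 1 spot per array, and no second probe of Bmp3 was available to set beside it. Gdf7 was above background on the Dnmt3a knockout array only, with 36.2 there against 26.5 on the wild type array. Its wild type signal already passed the lowest signal well above background there. The 1.40-fold higher reading is therefore the plain ratio (0.48, SE 0.44) and not a bound. The second probe of Gdf7 was above background on neither array. Bmp5 (21.7 on the knockout and 18.3 on the wild type array) and Gdf11 (20.3 on the knockout and 5.21 on the wild type array) also cleared the background on the Dnmt3a knockout array only. They gave no fold above 1 by the bound used for Bmp3.

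Of the antagonists, Fst encodes follistatin, which binds activins, and read 362 on the Dnmt3a knockout array and 558 on the wild type array (-0.59, SE 0.21, 1 probe). Grem1, a BMP antagonist of stromal cells, read 532 on the knockout and 656 on the wild type array (-0.27, SE 0.20). Nog, a further BMP antagonist, read 650 on the knockout and 548 on the wild type array (0.28, SE 0.20). Fst was only just past 1.5-fold, and normexp background correction brought it to -0.50.

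Most receptors stayed within 1.5-fold, and a pair that acts together was higher. Acvrl1, the type I receptor ALK1 that binds the ligand Gdf2 in endothelial cells, read 2900 on the Dnmt3a knockout array and 1956 on the wild type array (0.60, SE 0.20, 1 probe). Eng, endoglin, the co-receptor that works with ALK1, read 1788 on the knockout and 1134 on the wild type array (0.69, SE 0.20, 1 probe). Acvrl1 was short of 1.5-fold with quantile normalization (0.57), and both were short of it with median scaling (Acvrl1 0.40, Eng 0.49) and with spike-in scaling (Acvrl1 0.07, Eng 0.16). Gdf2, a ligand of the pair, was above background on neither array. The BMP ligand Bmp10 was measured on both but dim (49.7 on the knockout and 37.5 on the wild type array). Of 12 endothelial markers 7 were measured, from Plvap (-0.63) and Egfl7 (-0.30) to Pecam1 (0.15) and Vwf (0.19), and their median was 0.08. Cdh5, a defining marker of endothelial cells, read 37.0 on the knockout and 18.5 on the wild type array and was well above background on the Dnmt3a knockout array only, as were Cldn5 and Tie1. Macrophage and monocyte markers were higher, from Itgam (-0.27) and Csf1r (0.10) to Vsig4 (1.32) and Marco (1.47), with a median of 0.68. Of 13 such markers, 8 were at least 1.5-fold higher (61.5%, against 5.82% of all measured genes). The part of macrophages and monocytes in the difference of Acvrl1 and Eng was not tested.

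Tgfbr1, the type I receptor of TGF-beta, read 4781 on the Dnmt3a knockout array and 6697 on the wild type array (-0.46, SE 0.20). Its second and dimmer probe read 150 on the knockout and 339 on the wild type array (-1.14, SE 0.21), so both probes were lower and their sizes disagree by 0.69. Tgfbr2, the type II receptor, read 8969 on the knockout and 9898 on the wild type array (-0.11, SE 0.20), and its second probe gave -0.03. Tgfbr1 was thus lower at both of its probes, by an amount that depends on the probe, and Tgfbr2 lay within the scanner error.

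Bmpr1a, a type I receptor of BMPs, read 58.0 on the Dnmt3a knockout array and 86.9 on the wild type array (-0.55, SE 0.25) and lay just short of 1.5-fold. Acvr1, a further type I receptor, read 3007 on the knockout and 3590 on the wild type array (-0.23, SE 0.20; second probe -0.38). Acvr1b, the activin type I receptor, read 70.1 on the knockout and 62.9 on the wild type array (0.19, SE 0.26). The type II receptors Acvr2a (-0.29), Acvr2b (-0.16) and Bmpr2 (-0.06) were all slightly lower, and a dim second probe of Acvr2a was above background on the Dnmt3a knockout array only. Acvr1c and Bmpr1b were above background on neither array. Among co-receptors, Tgfbr3, betaglycan, read 145 on the knockout and 194 on the wild type array (-0.39, SE 0.21), and Tgfbr3l, described as an inhibin co-receptor of pituitary cells, read 32653 on the knockout and 31401 on the wild type array (0.09, SE 0.20).

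The measured Smads lay between -0.50 (Smad7) and 0.09 (Smad2 and Smad4). Smad2 (0.09), Smad3 (-0.07) and Smad4 (0.09) lay within their scanner errors of 0.20. Of the BMP Smads, Smad1 read 307 on the Dnmt3a knockout array and 360 on the wild type array (-0.20, second probe 0.02), Smad5 read 2179 on the knockout and 2654 on the wild type array (-0.25, second probe -0.38), and Smad9 was above background on neither. Smad6, which inhibits BMP signals, read 334 on the knockout and 332 on the wild type array (0.04, SE 0.21). Smad7, an inhibitor that TGF-beta itself induces, read 298 on the knockout and 429 on the wild type array (-0.50, SE 0.21). A difference within the scanner error does not show that levels were equal.

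Some genes carry the family name without encoding its ligands, receptors or Smads, and they include the highest of the measured members. Tgfbi, a secreted adhesion protein of the matrix named for its induction by TGF-beta, read 52195 on the Dnmt3a knockout array and 27365 on the wild type array (0.96, 1.95-fold higher, SE 0.20, 1 probe), and stayed at 0.43 with spike-in scaling. Bmp1, a metalloproteinase that trims procollagens, read 1244 on the knockout and 2527 on the wild type array (-0.99, SE 0.20), with -0.42 at its second probe. Tgfbrap1, a protein of endosome tethering, read 342 on the knockout and 250 on the wild type array (0.48, SE 0.21), and the kinase gene Bmp2k read 3230 on the knockout and 2656 on the wild type array (0.31, SE 0.20). Tgfbrap1 and Bmp2k fall below 0 with spike-in scaling.

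Of 27 measured genes that TGF-beta or BMP induce in other cells, 18 lay below 0 (all genes, 48.1%) and 9 above it. On the Dnmt3a knockout array 8 were at least 1.5-fold lower (29.6%, against 4.69% of all genes). Only 1, Tgfbi, was at least 1.5-fold higher (3.70%, against 5.82%), and the median was -0.39. Without the 3 members on that list, 8 of 24 were lower and the median was -0.39. Snai2, a repressor of epithelial genes, read 471 on the knockout and 868 on the wild type array (-0.85). Ccn2, the matricellular protein also called connective tissue growth factor, read 7163 on the knockout and 12577 on the wild type array (-0.78). Also lower by at least 1.5-fold were Ccn1 (-0.63), Pmepa1 (-0.62, second probe -0.55) and the cell cycle inhibitor Cdkn2b (-0.60, second probe -0.66). Id4 (-0.67, SE 0.42) and Hes1 (-0.60, SE 0.37) passed 1.5-fold too, but both are dim and lie within 2 scanner errors of 0. Among the Id genes, direct targets of BMP Smads, Id1 was at -0.40, Id2 at -0.13 and Id3 at 0.25. Cdkn1a, a cell cycle inhibitor, was the second highest at 0.55. Its second and dimmer probe was at 0.69, past 1.5-fold, so its place under that limit rests on reading the brightest probe.

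Stromal and osteoblast markers, which could come from other marrow cells in the culture, were lower as well. Of 17 measured, 9 were at least 1.5-fold lower (52.9%, against 4.69% of all measured genes). Below 0 lay 15 of the 17 (all genes, 48.1%), and their median was -0.64. The signals of all 19 such markers with a probe summed to 117407 on the Dnmt3a knockout array and 175063 on the wild type array. Bright genes weigh most in these sums, such as Col1a2 with 23671 on the knockout and 39211 on the wild type array. Cxcl12 (-0.98) and Alpl (-0.98) were lowest and Dcn (0.03) and Lepr (0.16) highest, while Lum and Runx2 were above background on neither array. The probe read for Lepr gave 7584 on the knockout and 6923 on the wild type array. A much dimmer probe of Lepr gave 37.4 on the knockout and 36.8 on the wild type array (0.05), and its other probes were above background on neither. In cultures of mixed cells, fewer cells of a type and less RNA per cell cannot be told apart. The part of stromal cells in the lower signals of Tgfb2, Tgfb3, Ltbp1, Bmp1, Fst and Ccn2 was not tested. Osteoclast markers were lower too, from Tnfrsf11a (-1.20) and Calcr (-0.84) to Clcn7 (-0.18) and Acp5 (-0.00). At least 1.5-fold lower were 5 of these 14 (35.7%, against 4.69% of all measured genes). Megakaryocyte and platelet markers, from cells that also make Tgfb1, had a median of 0.23 over 10 genes, with Pf4 at 0.83 and Itga2b at 0.46 highest and Gp1ba (-0.08) and Ppbp (-0.01) lowest, and that median falls below 0 with spike-in scaling.

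**Figure D3:**
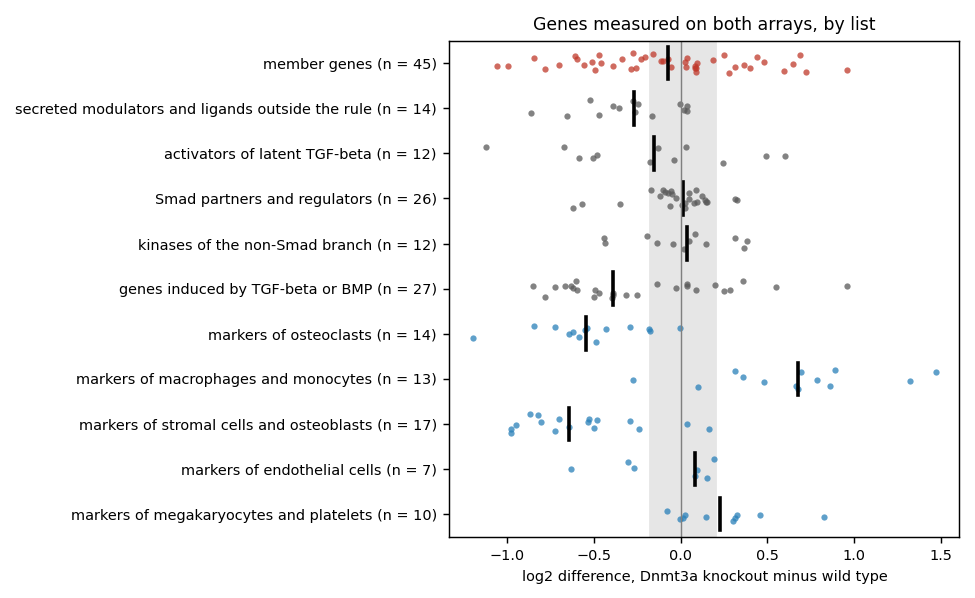
Log2 difference, Dnmt3a knockout minus wild type, of every gene measured on both arrays in each list, with 1 point per gene, a black bar at the list's median and a grey band from the lower to the upper quartile of all 13479 measured genes (-0.17 to 0.20). The member genes spread to both sides of 0, the induced genes have a median of -0.39 and stromal markers one of -0.64; spike-in scaling moves all points left by 0.53.

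Genes that activate latent TGF-beta differed in both directions (median -0.15, 12 measured). The integrin chain Itgav, which pairs with several beta chains to release TGF-beta, read 725 on the Dnmt3a knockout array and 1609 on the wild type array (-1.12, second probe -0.58), and the fibrillin Fbn1, which anchors latent complexes, read 305 on the knockout and 497 on the wild type array (-0.67). Nrros, which presents latent TGF-beta on the surface of macrophages and microglia, read 41000 on the knockout and 27621 on the wild type array (0.60), and Itgb5 was at 0.49. Itgb6 and Itgb8, known partners of Itgav in this task, were above background on neither array. Pcsk6, a proprotein convertase, read 17.0 on the knockout and 79.0 on the wild type array and was above background on the wild type array only.

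Secreted modulators outside the naming rule had a median of -0.27 over 14 measured, 11 of them below 0 (all genes, 48.1%). Fstl1, a secreted glycoprotein that can bind BMPs, read 2830 on the Dnmt3a knockout array and 5244 on the wild type array (-0.86), and the BMP co-receptor Rgma read 708 on the knockout and 1138 on the wild type array (-0.66). The highest were Dcn (0.03) and Lefty2 (0.04). Inside the cell, Smad partners and regulators had a median of 0.02 over 26 measured, a value that spike-in scaling lowers by 0.53 like every other. They ran from Pmepa1 (-0.62) and Zeb1 (-0.57) to Zeb2 (0.31) and the ubiquitin ligase Wwp1 (0.32). Kinases and adaptors of the branch that does not use Smads had a median of 0.04 over 12, with 0 past 1.5-fold (all genes, 5.82% higher and 4.69% lower). They ran from Traf4 (-0.44) and Traf6 (-0.44) to Mapk14 (0.37) and Pard6a (0.38). Some genes sit on more than 1 of these lists, among them Pmepa1, Skil, Mmp9, Dcn and Runx2.

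**Figure D4:**
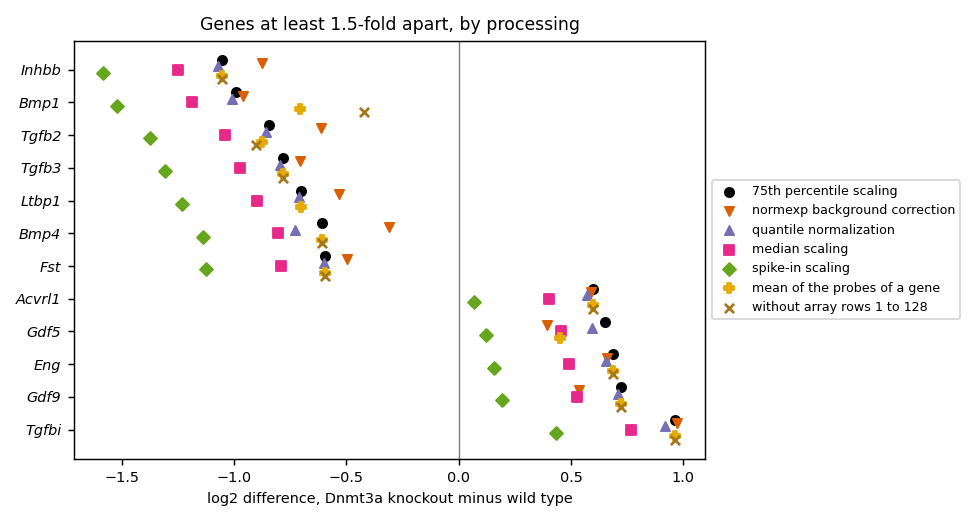
Log2 difference, Dnmt3a knockout minus wild type, of the 12 members at least 1.5-fold apart, with 1 symbol per processing setting. Each gene keeps its side of 0 under all settings drawn, with spike-in scaling farthest to the left (Tgfbi at 0.43, Acvrl1 at 0.07), and Bmp1 moves to -0.42 where its first probe, in the upper rows of the array, is left out.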

How the data were processed

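Total RNA from both cultures was hybridised to 1-colour (Cy3) Agilent mouse arrays. Per the file headers, the authors' deposited intensity of a spot was background-subtracted and detrended across the array by Feature Extraction 10.10.1.1, with mm9 as the design's build, and was not normalized between arrays. The submitters' processing notes name version 9.1, and which applies was not settled. The deposited value table, a multiple of the same intensity, was an alternative.

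Spots marked uneven or outlying on either array were left out (172 on the Dnmt3a knockout and 157 on the wild type array had marks), no spot was saturated, and log2 signals were scaled to each array's 75th percentile over 59305 spots (a shift of 0.03). Accessions were matched to RefSeq symbols (assembly GRCm38.p6), naming 27224 of 55649 probes. A gene was read from its brightest probe (mean of the arrays) and counted as measured where most of its spots were well above background on both arrays. The repeat-spot SD was 0.07 at the median of 259 probes, and the median scanner error 0.20; the number of arrays limits all precision. Python 3.11.15, pandas 2.3.3 and, for normexp (offset 50) and quantile normalization, limma 3.58.1 were used. The files hold no mean spot signal, so normexp used the median. The calculation was tested on simulated data.

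The members and lists were chosen with earlier results of these data known. All members could be named, and of the other lists the genes at least 1.5-fold apart and the 2 highest and 2 lowest. Cdh5, Cldn5, Tie1, Id1, Id2, Id3, Itgb6, Itgb8, Pcsk6, Lum and Runx2 were named after their values were seen. The values of a gene on the list of induced genes are not reported here, though it is in that list's counts and median.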

Additional observations from a re-analysis of the deposited data

How the results depend on the processing

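The deposited value table gave 5 members at least 1.5-fold higher and 7 lower, as in the main setting. Counts below are higher and then lower, with the shares of all genes in brackets. They were 3 and 4 with normexp background correction (3.64% and 2.16%) and 1 and 13 with median scaling (2.46% and 10.5%). With spike-in scaling they were 0 and 24 (0.482% and 39.9%), with a median of -0.60 over members and -0.52 over all genes. With only the brighter part of all measured genes (from the median level up) they were 3 and 2 of 19 members (4.79% and 2.40%). At 2-fold they were 0 and 1 (0.824% and 0.727%). The counts were 4 and 8 with quantile normalization (4.76% and 5.94%) and also with the mean of a gene's probes (5.74% and 4.43%). With no filter on dim probes they were 7 and 10 of 61 (12.4% and 5.89%), where the higher count lay near the share of all genes. Without the upper rows of the array they were 4 and 5 of 33 (5.48% and 4.22%). Those rows hold the spots of Ltbp1, Gdf5 and Bmp3 and the brightest probes of Bmp1 (-0.42 without them) and Tgfb2 (-0.90 without them). In the upper rows 12.3% of all genes were at least 1.5-fold apart, against 9.60% elsewhere. Over all genes, 55.4% of differences past 1.5-fold were upward, 44.5% with quantile normalization, 62.8% with normexp, 19.0% with median scaling, 1.20% with spike-in scaling, 67.8% with no filter and 66.6% in the brighter part. None of the 12 genes changed sign under the settings run; normexp brought Tgfb2 to -0.62, Bmp4 to -0.31 and Gdf5 to 0.39, and took Ltbp1 (-0.53), Fst (-0.50) and Gdf9 (0.54) under 1.5-fold, and the mean of its probes brought Bmp1 to -0.71. The constant shifts of median and spike-in scaling follow from their construction, and for the others the cause was not tested. Ltbp1 and Gdf5 could not be recomputed without the upper rows: no probe of either was left. Dim members such as Bmp4, Bmp10 and Gdf5 are limited by signal over background. No paired analysis was possible because each genotype has 1 array.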
